A study of Mus musculus with 12 samples.

Results

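Transcripts of 10 genes around YAP and TAZ, the coactivators restrained by the Hippo pathway, were followed in the mouse astrocyte cell line C8-D1A under 3 kinds of extracellular acidification. The genes were taken by name from the 21959 genes of the deposited table: Ccn1 (also called Cyr61), Ccn2 (also called Ctgf), Ankrd1, Amotl2, Lats2, Axl, Ajuba, Yap1, Wwtr1 (which encodes TAZ) and Tead1. There were 12 libraries of total RNA in 4 groups of 3, collected 24 h after the start of each condition. Control cells were kept at 37 °C under 5% CO2, the second group was kept under 15% CO2, the third received medium with 20 mM lactic acid, and the fourth received medium whose NaHCO3 (sodium bicarbonate) was lowered to 0.2 g/L. The labels give no medium pH for any group, and for the 3 treated groups no temperature. Nothing in them says that replicates were grown as separate cultures, so p-values measure the spread between these libraries, which may be technical. All groups are 1 cell line, and values are transcripts per 1000000 (TPM), a level per transcript length and a share of each library, with unknown sequencing depth.

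In the Hippo pathway the kinases MST1 and MST2 (encoded by Stk4 and Stk3) with their scaffold SAV1 activate LATS1 and LATS2. LATS kinases phosphorylate YAP and TAZ, which holds them in the cytoplasm or marks them for breakdown. Unphosphorylated YAP and TAZ enter the nucleus, bind TEAD factors on DNA and switch on genes such as Ccn1, Ccn2 and Ankrd1, and some of the targets, among them Lats2 and Amotl2, feed back on the pathway. Much of this control acts on the proteins, which were not measured here. Cell shape, attachment and tension on the actin cytoskeleton feed into the pathway, and in astrocytes YAP has been tied to proliferation and to the reactive state.

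One control library stood apart from the others and touches every comparison with control. Control 1 had Spearman correlations of 0.761 to 0.804 with the other 11 libraries, which among themselves had 0.954 to 0.997. All 35 markers of neurons, oligodendrocytes, microglia, vessel cells, mature astrocytes, red blood cells and fibroblasts were higher in control 1 than in any other library. The 6 neuron markers summed to 1835 TPM there and to between 4.79 and 10.2 TPM elsewhere, and the 5 oligodendrocyte markers to 828 TPM against 30.8 to 58.3 TPM. Of the 10 genes, 9 were lower in control 1 than in controls 2 and 3, and Ccn2 was higher. The share of all genes lower in control 1 was not computed, so this count says nothing particular about the 10. Each test of the 10 genes against control is therefore given with all 12 libraries and again without control 1, and so are the counts of the wider pathway lists. The 6 markers of mature astrocytes (Aqp4, Slc1a2, Slc1a3, Gja1, Aldoc and Gfap) summed to 0.407 to 2.70 TPM in the other 11 libraries. Of these, 5 were under 1 TPM in all 11, so these mature markers were nearly absent. Other astrocyte genes were not examined here. The share of TPM from mitochondrially encoded genes was 10.4% to 10.9% in low NaHCO3, and reached 24.8% in 15% CO2 library 3 and 27.8% in lactic acid library 3.

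The promoters of the genes are shown first, since TEAD factors are the DNA-binding partners of YAP and TAZ. RefSeq promoter windows of 300 bases on GRCm38.p6, running from 250 bases before to 50 after the start of the gene, were at hand for 8 of the 10 genes, all but Ccn2 and Tead1. The TEAD motif was searched as GGAATG on both strands. At least 1 match lay in a window of each of the 8 genes (in 9 of their 10 windows). Of all 32851 windows 14.7% held one, and of all genes 16.6% did. The 8 were taken by name as genes around YAP and TAZ, so they are no random draw from all genes. The AP-1 motif TGANTCA was in the windows of 0 of the 8 genes, and in 7.81% of all windows and 8.97% of all genes. The CArG box, the motif of serum response factor, was in 0 of the 8, and in 1.63% of all windows and 1.81% of all genes. Both of these were also searched on both strands, and no match overlapped one of another motif. A match describes the letters of the window and is not a measured binding site. The windows of 4 genes are printed because these are among the genes whose transcripts rose in low NaHCO3. They are written 5′ to 3′ on the strand of the gene, with capitals marking the motif, as GGAATG or as its reverse complement CATTCC.
Ccn1: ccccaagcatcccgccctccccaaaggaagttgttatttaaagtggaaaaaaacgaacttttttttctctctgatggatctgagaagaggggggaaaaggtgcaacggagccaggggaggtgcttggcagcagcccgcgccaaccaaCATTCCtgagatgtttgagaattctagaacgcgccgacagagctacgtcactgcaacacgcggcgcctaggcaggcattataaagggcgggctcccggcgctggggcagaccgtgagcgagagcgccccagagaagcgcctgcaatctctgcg
Ankrd1: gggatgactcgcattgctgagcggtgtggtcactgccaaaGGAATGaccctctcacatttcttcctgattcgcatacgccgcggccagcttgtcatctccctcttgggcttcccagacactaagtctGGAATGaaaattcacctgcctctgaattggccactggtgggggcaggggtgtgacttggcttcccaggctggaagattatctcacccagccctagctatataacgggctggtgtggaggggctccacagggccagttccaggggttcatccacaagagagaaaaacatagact
Lats2: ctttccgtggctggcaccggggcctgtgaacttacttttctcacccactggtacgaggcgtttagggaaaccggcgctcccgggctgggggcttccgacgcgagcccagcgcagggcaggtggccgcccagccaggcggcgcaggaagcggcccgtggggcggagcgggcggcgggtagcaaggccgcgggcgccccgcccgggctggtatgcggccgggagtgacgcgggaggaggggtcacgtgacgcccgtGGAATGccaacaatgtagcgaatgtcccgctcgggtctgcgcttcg
Ajuba: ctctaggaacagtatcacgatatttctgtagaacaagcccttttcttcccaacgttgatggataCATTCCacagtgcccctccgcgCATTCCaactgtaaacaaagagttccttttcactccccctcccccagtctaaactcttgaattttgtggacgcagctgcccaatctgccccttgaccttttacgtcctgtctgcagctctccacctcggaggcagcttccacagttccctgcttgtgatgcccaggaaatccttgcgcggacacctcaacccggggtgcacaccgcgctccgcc
The Ccn1 window is chr3:145649936-145650235 on the minus strand, and its single match begins at position -103, counted back from the first base of the transcript. The Ankrd1 window is chr19:36119795-36120094 on the minus strand, with matches beginning at -210 and -123. The Lats2 window printed is chr14:57746074-57746373 on the minus strand, with a match beginning at 5, just inside the transcript. Another Lats2 window, chr14:57734369-57734668 on the minus strand, is not printed. It was the member window that held no match. The Ajuba window is chr14:54577612-54577911 on the minus strand, with matches beginning at -186 and -164. Ankrd1 and Ajuba were thus the genes with 2 matches, which 1.36% of all windows hold or exceed.

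Low NaHCO3 was the condition in which these genes moved most. Ccn1, Ccn2, Ankrd1, Lats2, Axl, Ajuba, Wwtr1 and Tead1 rose, 8 of 10, and none of the 10 fell, by limma's moderated test on log2(TPM + 1) with a Benjamini-Hochberg adjusted p under 0.05. Of all 11996 genes tested, 56.2% passed in this contrast, 20.5% higher and 35.8% lower. The median log2 change of the 10 genes was 0.82, beside a median of -0.19 over all genes tested. Without control 1, the 8 genes passed again and Yap1 fell, where 64.6% of 12023 genes passed, 23.1% higher and 41.5% lower. The 2 medians were then 0.52 and -0.18. In bulk RNA, fewer cells that express a gene and less RNA of it per cell cannot be told apart.

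**Figure D1:**
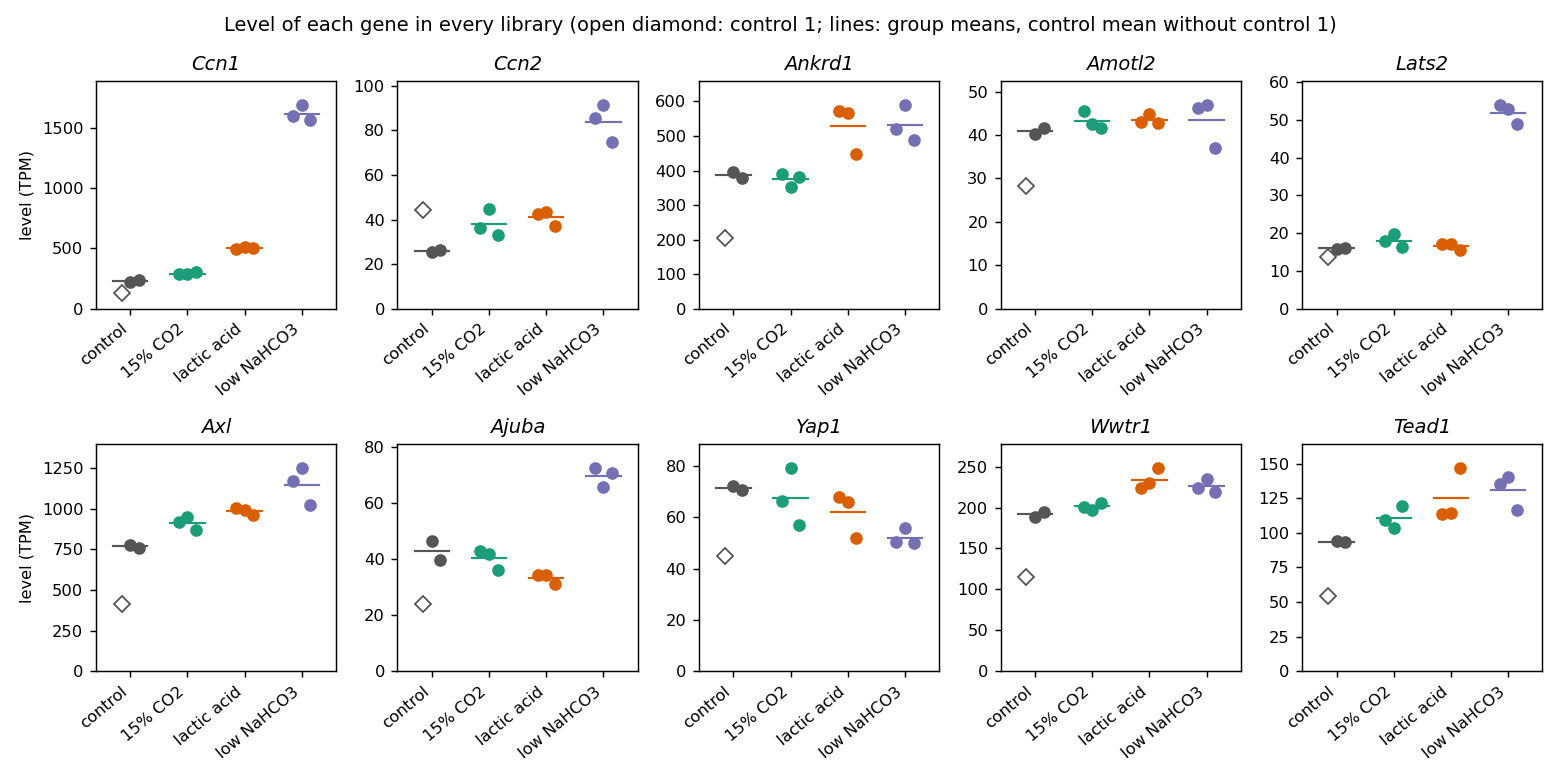
Level of each of the 10 genes in every library, in TPM on linear axes that start at 0, by group. Points are single libraries, an open diamond is control 1, and lines are group means, for control the mean of controls 2 and 3. Ccn1 sits between 1567 and 1689.7 TPM in low NaHCO3 and at or under 511 TPM in the other 9 libraries, while Amotl2 lies between 37.1 and 46.8 TPM in all libraries but control 1.

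Transcripts of the 2 secreted CCN proteins of the set rose in low NaHCO3, and Ccn1 had the highest log2 change of the 10 genes. Ccn1 (ENSMUSG00000028195) encodes a matricellular protein that binds integrins and is an immediate target of YAP and TAZ. Its level was 131, 219.5 and 239 TPM in controls 1, 2 and 3, 284, 285 and 304 TPM in 15% CO2, 498, 511 and 501 TPM in lactic acid, and 1599, 1689.7 and 1567 TPM in low NaHCO3. The 4 groups did not overlap, and the order was control, 15% CO2, lactic acid, low NaHCO3. Mean Ccn1 TPM in low NaHCO3 was 8.23 times the control mean, or 7.06 times the mean of controls 2 and 3. The log2 change was 3.08 ± 0.18 (SE, 3 libraries against 3), with a limma adjusted p of 5.6e-07, and 2.81 ± 0.07 without control 1, with an adjusted p of 5.7e-09.

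Ccn1 also rose in lactic acid, where it was the only one of the 10 genes that passed with all libraries. Lactic acid gave a log2 change of 1.40 ± 0.18 against control (limma adjusted p = 0.0063), and 1.13 ± 0.07 without control 1 (limma adjusted p = 5.1e-05). Of all genes tested, 4.4% passed in lactic acid with all libraries, 2.73% higher and 1.68% lower. The Ccn1 call in lactic acid was lost when only these 2 groups were fitted with all their libraries (log2 change 1.40, limma adjusted p = 0.211). In that fit 0 of all genes tested passed, so the loss was not particular to Ccn1. It passed in 29 of 30 alternative analyses. In 15% CO2 the Ccn1 log2 change was 0.61 ± 0.18, which did not pass (limma adjusted p = 0.137), and 0.34 ± 0.07 without control 1, which did (adjusted p = 0.02).

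Ccn2 (ENSMUSG00000019997) encodes a matricellular protein known for driving matrix production, and it is the other CCN gene most used as a readout of YAP and TAZ. Its level was 44.1, 25.6 and 26.2 TPM in controls 1, 2 and 3, 36.1, 44.7 and 33.2 TPM in 15% CO2, 42.5, 43.4 and 37.3 TPM in lactic acid, and 85.5, 91.2 and 75.0 TPM in low NaHCO3. All 3 libraries of low NaHCO3 were above the other 9. Control 1 lay within the range of the 15% CO2 group, above controls 2 and 3. The log2 change in low NaHCO3 was 1.41 ± 0.19 (limma adjusted p = 0.00012), and 1.65 ± 0.12 without control 1 (limma adjusted p = 9.8e-07). The changes in lactic acid (0.39) and in 15% CO2 (0.28) did not pass with all libraries, with limma adjusted p of 0.235 and 0.492. Without control 1 both passed, at 0.64 ± 0.12 in lactic acid (limma adjusted p = 0.0076) and 0.53 ± 0.12 in 15% CO2 (limma adjusted p = 0.028).

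Ccn1 was the more abundant of the pair in every library, and its ratio to Ccn2 differed between groups. The ratio of Ccn1 to Ccn2 TPM was 8.58 and 9.13 in controls 2 and 3 and 2.98 in control 1. It was 6.37 to 9.14 in 15% CO2, 11.7 to 13.4 in lactic acid and 18.5 to 20.9 in low NaHCO3. The 3 ratios of 15% CO2 thus overlapped the controls, and those of lactic acid and of low NaHCO3 lay above all 3 controls. The ratio itself was not tested.

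Among the other targets, Ankrd1 rose in low NaHCO3 and its level was as high in lactic acid. Ankrd1 (ENSMUSG00000024803) encodes an ankyrin repeat protein of muscle and stressed cells that acts in the nucleus and at the sarcomere. Its level was 204, 395 and 379.5 TPM in controls 1, 2 and 3, 389, 353 and 381 TPM in 15% CO2, 572, 567 and 448 TPM in lactic acid, and 520.1, 589 and 489 TPM in low NaHCO3. The lactic acid and low NaHCO3 groups overlapped each other and lay above all other libraries. The log2 change in low NaHCO3 was 0.76 ± 0.22 (limma adjusted p = 0.012), and 0.45 ± 0.12 without control 1 (limma adjusted p = 0.0052). A fit of the 2 groups alone with all libraries ended that call (limma adjusted p = 0.057). In lactic acid the change was 0.75 ± 0.22 with a limma adjusted p of 0.074, and without control 1 it passed at 0.44 ± 0.12 (adjusted p = 0.027). In 15% CO2 it was 0.26 ± 0.22, and -0.05 ± 0.12 without control 1, with limma adjusted p of 0.571 and 0.818.

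Axl was the most abundant of the 10 genes in controls and in both other acid conditions. Axl (ENSMUSG00000002602) encodes a receptor tyrosine kinase for GAS6 that takes part in the clearance of dying cells. Its level was 412, 778 and 761 TPM in controls 1, 2 and 3, 917, 952 and 871 TPM in 15% CO2, 1007, 994 and 959 TPM in lactic acid, and 1173, 1250.5 and 1022 TPM in low NaHCO3. In TPM the 4 groups did not overlap, and their order was that of Ccn1. The place of low NaHCO3 at the top did not hold in every one of 30 alternative analyses. Its log2 difference from lactic acid ran from -0.18 to 0.38, and from 15% CO2 from -0.07 to 0.53. Each was negative in 2 of the 30. In low NaHCO3 the log2 change was 0.87 ± 0.21 (limma adjusted p = 0.0045), and 0.57 ± 0.10 without control 1 (limma adjusted p = 0.00032). The Axl change in lactic acid, 0.66 ± 0.21, had a limma adjusted p of 0.094, and without control 1 it passed at 0.36 ± 0.10 (adjusted p = 0.029). In 15% CO2 it passed in neither fit, at 0.54 ± 0.21 and 0.25 ± 0.10.

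Ajuba moved in opposite directions in low NaHCO3 and in lactic acid once control 1 was left out. Ajuba (ENSMUSG00000022178) encodes a LIM-domain protein of cell junctions that binds and restrains LATS kinases. Its level was 23.9, 46.4 and 39.8 TPM in controls 1, 2 and 3, 42.8, 41.9 and 36.1 TPM in 15% CO2, 34.2, 34.3 and 31.3 TPM in lactic acid, and 72.5, 65.9 and 70.7 TPM in low NaHCO3. Low NaHCO3 lay above all other libraries, and lactic acid lay below all but control 1. The log2 change in low NaHCO3 was 0.96 ± 0.19 (limma adjusted p = 0.0015), and 0.68 ± 0.10 without control 1 (limma adjusted p = 8.4e-05). In lactic acid it was -0.09 ± 0.19 (limma adjusted p = 0.798), and -0.36 ± 0.10 without control 1 (limma adjusted p = 0.027). The fall in lactic acid passed in 5 of 30 alternative analyses, and the rise in low NaHCO3 in all 30. In 15% CO2 the values were 0.18 and -0.09, and neither passed.

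Amotl2 passed in no comparison with control in either fit. Amotl2 (ENSMUSG00000032531) encodes an angiomotin-like protein that holds YAP in the cytoplasm and is itself a YAP target. Its level was 28.2, 40.1 and 41.7 TPM in controls 1, 2 and 3, 45.5, 42.5 and 41.7 TPM in 15% CO2, 43.0, 44.8 and 42.7 TPM in lactic acid, and 46.2, 46.8 and 37.1 TPM in low NaHCO3. Control 1 was apart, on the low side, and the lactic acid libraries lay just above controls 2 and 3. The log2 changes against control were 0.25, 0.26 and 0.25 in 15% CO2, lactic acid and low NaHCO3, with limma adjusted p of 0.412, 0.283 and 0.152, and 0.08, 0.09 and 0.07 without control 1. In low NaHCO3 it passed after median-of-ratios scaling, at 0.42 with all libraries (limma adjusted p = 0.018).

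Lats2, the kinase of the feedback loop, rose in low NaHCO3 and passed in neither other condition. Lats2 (ENSMUSG00000021959) had 13.7, 15.9 and 16.1 TPM in controls 1, 2 and 3, 17.9, 19.8 and 16.2 TPM in 15% CO2, 17.1, 17.1 and 15.5 TPM in lactic acid, and 53.9, 52.9 and 49.1 TPM in low NaHCO3. The other 9 libraries lay within 13.7 to 19.8 TPM, so low NaHCO3 stood well clear of them. Its mean was 3.41 times the control mean, or 3.26 times the mean of controls 2 and 3, and control 1 moved this gene least of the 9 that were lower there. The log2 change was 1.71 ± 0.10 (limma adjusted p = 5.6e-07), and 1.64 ± 0.09 without control 1 (limma adjusted p = 1.4e-07). In 15% CO2 the change was 0.23 ± 0.10 and in lactic acid 0.12 ± 0.10, with limma adjusted p of 0.306 and 0.483, and neither passed without control 1.

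Lats1, the paralogue of Lats2, did not pass in low NaHCO3, with log2 changes of -0.01 ± 0.10 and -0.13 ± 0.07 with and without control 1. The ratio of Lats2 to Lats1 TPM within a library was 0.184, 0.164 and 0.166 in controls 1, 2 and 3, and 0.605, 0.566 and 0.592 in low NaHCO3. In the 6 libraries of 15% CO2 and lactic acid it was 0.144 to 0.178. Lats1 thus remained the more abundant LATS transcript per length in every library.

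**Figure D2:**
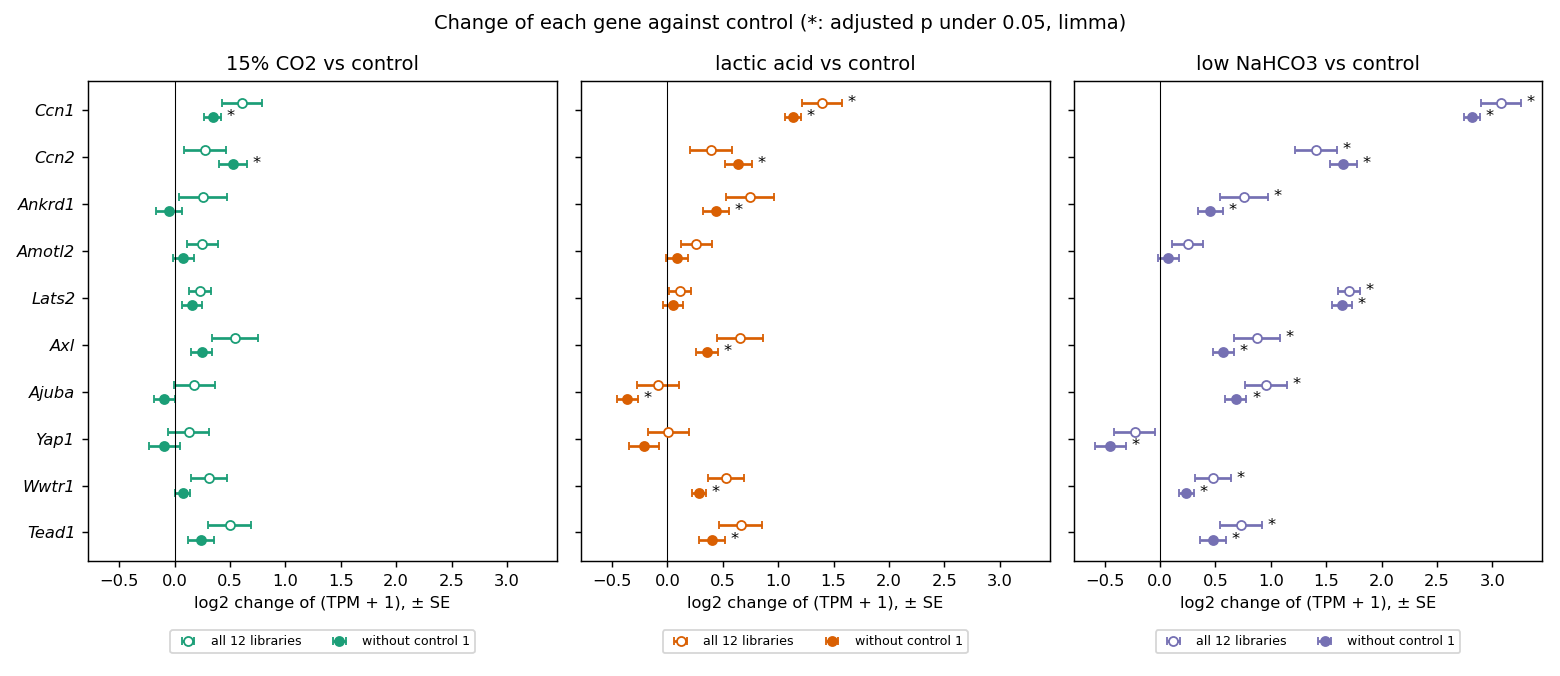
Log2 change of (TPM + 1) of each gene against control for 15% CO2, lactic acid and low NaHCO3, with standard errors from limma. Open points use all 12 libraries, filled points leave out control 1, and an asterisk marks an adjusted p under 0.05. In low NaHCO3 Ccn1 lies at 3.08 and 2.81, Lats2 at 1.71 and 1.64, and Yap1 on the negative side at -0.23 and -0.45.

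Wwtr1, but not Yap1, was among the genes that rose in low NaHCO3. Yap1 (ENSMUSG00000053110) had 44.8, 72.1 and 70.4 TPM in controls 1, 2 and 3, 66.3, 79.1 and 56.8 TPM in 15% CO2, 67.9, 65.9 and 51.9 TPM in lactic acid, and 50.3, 55.6 and 50.01 TPM in low NaHCO3. Low NaHCO3 was below controls 2 and 3 and above control 1. The log2 change in low NaHCO3 was -0.23 ± 0.18 (limma adjusted p = 0.303), close to the median of all genes, and without control 1 it fell by 0.45 ± 0.14 (limma adjusted p = 0.014). In 15% CO2 and lactic acid the change was 0.13 and 0.01, or -0.09 and -0.21 without control 1, and none of these passed.

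Wwtr1 (ENSMUSG00000027803), which encodes TAZ, had 115, 188 and 195 TPM in controls 1, 2 and 3, 201, 197 and 206 TPM in 15% CO2, 223, 230.0 and 248 TPM in lactic acid, and 224, 235 and 219 TPM in low NaHCO3. Lactic acid and low NaHCO3 overlapped each other and lay above the other 6 libraries. In low NaHCO3 the log2 change was 0.48 ± 0.16 (limma adjusted p = 0.027), and 0.24 ± 0.07 without control 1 (limma adjusted p = 0.0096). This was the least steady of the 8 rises: it no longer passed in 8 of 30 alternative analyses, among them quantile normalization (0.35, limma adjusted p = 0.092). In lactic acid the change was 0.53 ± 0.16 (limma adjusted p = 0.089), and 0.29 ± 0.07 without control 1 (limma adjusted p = 0.018). In 15% CO2 it was 0.31 and, without control 1, 0.07, and neither passed.

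Tead1 (ENSMUSG00000055320), which encodes a DNA-binding partner of both coactivators, had 54.5, 93.9 and 93.1 TPM in controls 1, 2 and 3, 109, 103 and 119.6 TPM in 15% CO2, 114, 115 and 147 TPM in lactic acid, and 136, 141 and 117 TPM in low NaHCO3. Every treated library was above every control, and the 3 treated groups overlapped each other. In low NaHCO3 the log2 change was 0.73 ± 0.19 (limma adjusted p = 0.0074), and 0.48 ± 0.12 without control 1 (limma adjusted p = 0.0045). In lactic acid it was 0.66 ± 0.19 (limma adjusted p = 0.073), and without control 1 it passed at 0.41 ± 0.12 (adjusted p = 0.041). In 15% CO2 it was 0.50 and 0.24, and neither passed. Lactic acid library 3 and 15% CO2 library 3, the libraries with the highest mitochondrial share, held the highest Tead1 and the lowest Yap1 of their groups. Whether the mitochondrial share has a part in this was not tested.

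The balance of the 2 coactivator transcripts differed between groups. Wwtr1 was the more abundant per length in every library. The ratio of Wwtr1 to Yap1 TPM was 2.57, 2.61 and 2.77 in controls 1, 2 and 3, 2.49 to 3.62 in 15% CO2, 3.29, 3.49 and 4.78 in lactic acid, and 4.45, 4.23 and 4.38 in low NaHCO3. In this ratio control 1 was 0.957 times the mean of controls 2 and 3. The ratio of Tead1 to Yap1 was 1.22, 1.30 and 1.32 in controls, 1.31 to 2.105 in 15% CO2, 1.67 to 2.83 in lactic acid and 2.33 to 2.70 in low NaHCO3. Both ratios lay above all controls in lactic acid and low NaHCO3 and overlapped them in 15% CO2, and neither was tested.

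**Figure D3:**
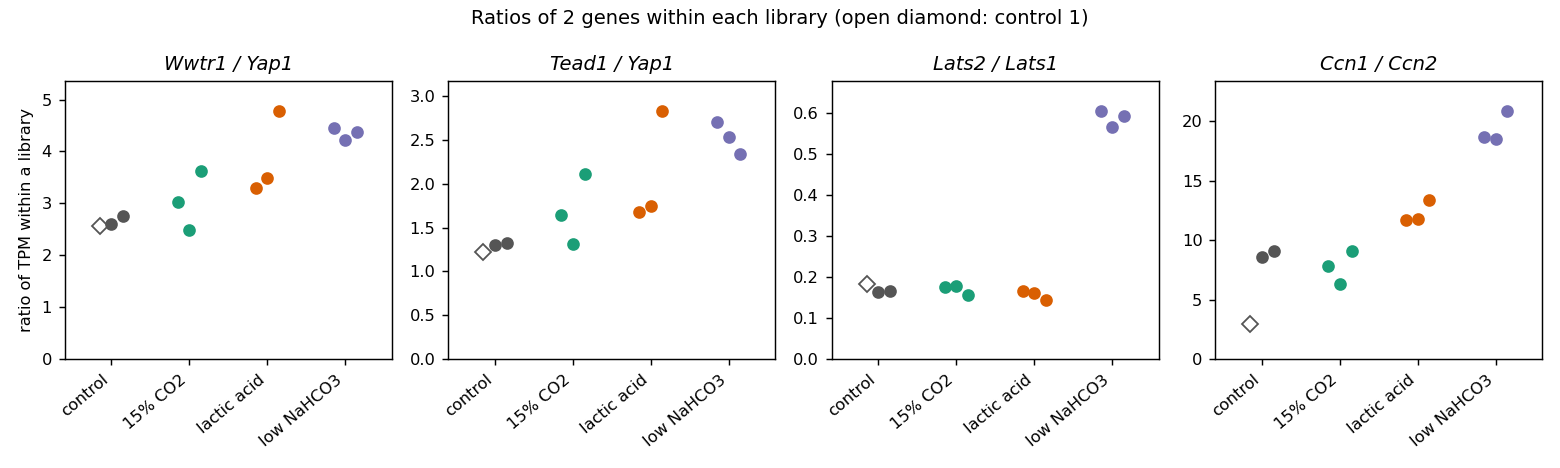
Ratios of the TPM of 2 genes within each library, by group, on linear axes that start at 0. Points are single libraries and the open diamond is control 1. Wwtr1/Yap1 is 2.57 to 2.77 in controls and 4.23 to 4.45 in low NaHCO3, and Lats2/Lats1 is 0.566 to 0.605 in low NaHCO3 and at most 0.184 elsewhere.

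Over the 3 comparisons with control, the number of genes that passed was 0 in 15% CO2, 1 in lactic acid and 8 in low NaHCO3. In 15% CO2, 0 of the 10 genes passed with all libraries, where 1.41% of all genes passed in limma, 1.34% higher and 0.0667% lower. An unadjusted p under 0.05 in limma was reached by 4 of the 10. The share of all genes at that level was not computed, here or below, so such counts have no background. Without control 1, Ccn1 and Ccn2 passed, where 7.62% of all genes did, 5.99% higher and 1.63% lower. In lactic acid 1 gene passed with all libraries, and without control 1 there were 7, of which Ajuba fell and Ccn1, Ccn2, Ankrd1, Axl, Wwtr1 and Tead1 rose, where 16.6% of all genes passed, 9.31% higher and 7.34% lower. The 3 comparisons share their control libraries, so their counts are not independent of each other. A moderated F test over the 4 groups passed for 7 of the 10 genes, all but Amotl2, Yap1 and Wwtr1 (limma adjusted p = 0.294, 0.372 and 0.055), where 55.2% of all genes passed, and without control 1 for all but Amotl2, where 75.4% did.

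Direct comparisons of the treated groups need no control library and asked which genes set low NaHCO3 apart. Against 15% CO2, low NaHCO3 was higher for Ccn1 (log2 difference 2.47 ± 0.18), Ccn2 (1.13 ± 0.19), Lats2 (1.48 ± 0.10) and Ajuba (0.78 ± 0.19), where 52.7% of all genes passed, 18.1% higher and 34.6% lower. The limma adjusted p of these 4 were 2.4e-06, 0.00054, 1.5e-06 and 0.0053. Against lactic acid the same 4 were higher, Ccn1 by 1.68 ± 0.18, Ccn2 by 1.01 ± 0.19, Lats2 by 1.59 ± 0.10 and Ajuba by 1.05 ± 0.19, where 50% of all genes passed, 18.3% higher and 31.7% lower. Their limma adjusted p were 2.9e-05, 0.0012, 1.3e-06 and 0.00097. Ankrd1, Wwtr1 and Tead1 had log2 differences of 0.01, -0.05 and 0.07 between low NaHCO3 and lactic acid, none of which passed.

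Control 1 adds to the shared estimate of spread even in these pairs, so leaving it out changed their calls but not their values. Without it, low NaHCO3 was also higher than 15% CO2 for Ankrd1 (0.50), Axl (0.33) and Wwtr1 (0.17) and lower for Yap1 (-0.36), with limma adjusted p of 0.0012, 0.0053, 0.029 and 0.023, where 69.9% of all genes passed, 24.2% higher and 45.8% lower. Axl was then also higher than in lactic acid (0.21, limma adjusted p = 0.044), where 68.1% passed, 24.8% higher and 43.3% lower. This Axl difference passed in 4 of 30 alternative analyses and was negative in 2 of the 30. Between 15% CO2 and lactic acid, 0 of the 10 genes passed with all libraries, where 0.333% of all genes passed in limma, 0.275% higher and 0.0584% lower. An unadjusted p under 0.05 in limma was reached by 2 of the 10 (share of all genes not computed). Without control 1, Ccn1 (-0.79 ± 0.07, limma adjusted p = 0.00027) and Ankrd1 (-0.49 ± 0.10, limma adjusted p = 0.024) were lower in 15% CO2 than in lactic acid, where 4.8% of all genes passed, 3.09% higher and 1.71% lower.

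**Figure D4:**
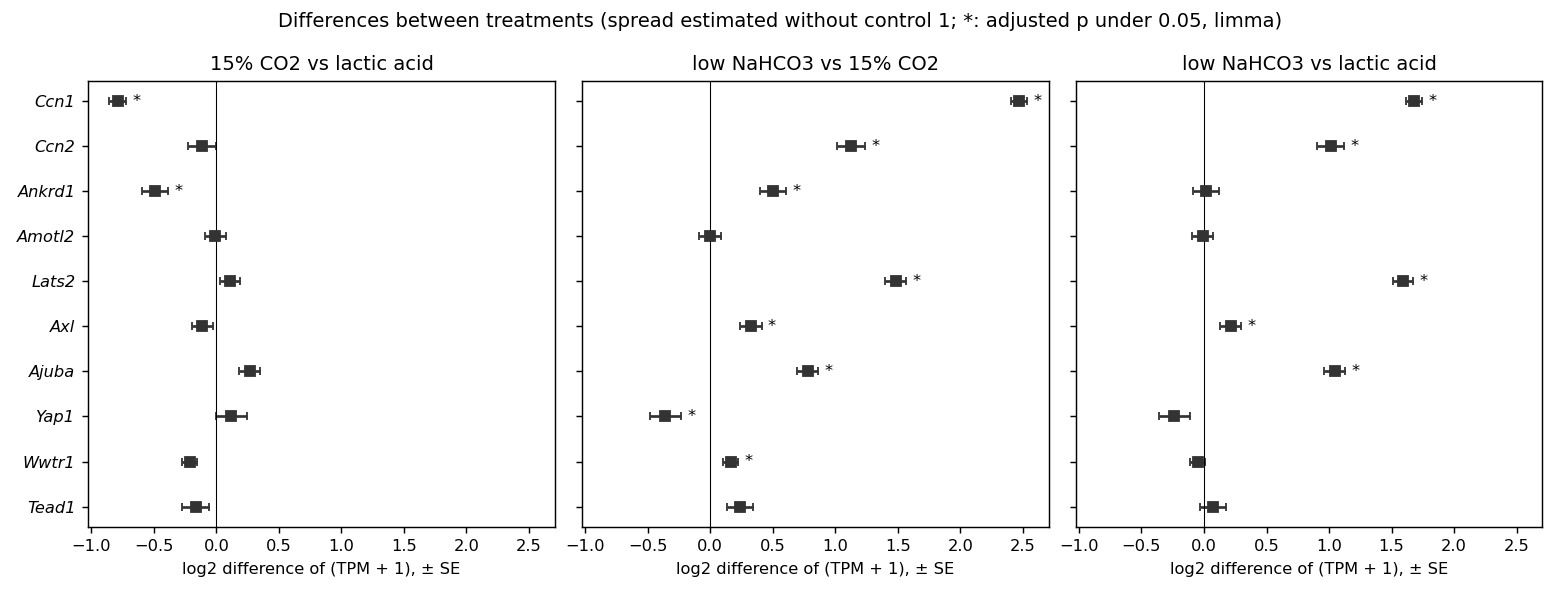
Log2 difference of (TPM + 1) of each gene between the treated groups, with standard errors from limma. The spread is from the fit without control 1, and an asterisk marks an adjusted p under 0.05. Ccn1, Ccn2, Lats2 and Ajuba are higher in low NaHCO3 than in either other treatment, from 0.78 for Ajuba to 2.47 for Ccn1 against 15% CO2.

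Of the wider pathway, 59 genes in 5 lists were followed, of which 52 could be tested. Among the Hippo kinases and upstream regulators, 14 of 16 were tested, and in low NaHCO3 8 fell and 1 rose, with a median log2 change of -0.42 (2 up and 10 down without control 1). Over all genes, 20.5% were called higher and 35.8% lower in this contrast, and 23.1% and 41.5% without control 1. Nf2, which encodes the membrane-linked activator merlin, fell by 1.35 ± 0.09 (limma adjusted p = 1.2e-06), and its level went from 57.5 to 60.1 TPM in controls to 19.9 to 24.1 TPM. Wwc1, which encodes the scaffold KIBRA, fell by 1.09 ± 0.10 (limma adjusted p = 1e-05), from 42.1 to 49.8 TPM down to 17.8 to 23.2 TPM. Taok2, a kinase upstream of the MST kinases, fell by 0.81 ± 0.12 (limma adjusted p = 0.00019). Frmd6, a FERM-domain protein of the same upstream layer, rose by 0.70 ± 0.15 (limma adjusted p = 0.0026). None of the 14 passed in 15% CO2 or lactic acid in either fit. With all libraries 3 and 5 had an unadjusted p under 0.05 in limma (share of all genes not computed). The 2 with the highest levels, Mob1a and Lats1, changed by 0.16 and 0.25 in 15% CO2 and by 0.20 and 0.25 in lactic acid, which did not pass.

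Among 9 TEAD factors and binding partners, 3 rose in low NaHCO3 and none fell (3 up and 2 down without control 1), with a median of 0.33. Of all genes, 56.2% were called in this contrast, 20.5% higher and 35.8% lower. Amotl1, an angiomotin relative of Amotl2, rose by 0.99 ± 0.16 (limma adjusted p = 0.00042), from 50.1 to 79.4 TPM in controls to 119 to 150.2 TPM. Vgll4, which competes with YAP for TEAD factors, rose by 0.83 ± 0.11 (limma adjusted p = 9.5e-05), and Tead4 by 0.48 ± 0.16 (limma adjusted p = 0.024). None of the 9 passed in 15% CO2 or lactic acid with all libraries. There 4 and 5 had an unadjusted p under 0.05 in limma (share of all genes not computed). Without control 1, Vgll3 (0.37) and Tead2 (0.35) rose in 15% CO2, where 7.62% of all genes passed, and Amotl1 (0.35) rose in lactic acid, where 16.6% did, with limma adjusted p of 0.036, 0.012 and 0.044.

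The other YAP and TAZ target genes included some that rose and some that fell in low NaHCO3. Of 14 tested out of 16, 5 rose and 3 fell, with a median of 0.01 (5 up and 6 down without control 1). The total with all libraries is near the 56.2% of all genes that passed, 20.5% higher and 35.8% lower, so that total says nothing particular about the list. Without control 1, 64.6% of all genes passed, 23.1% higher and 41.5% lower. Gadd45a, a growth arrest and DNA damage gene, rose by 1.45 ± 0.26 (limma adjusted p = 0.00076), Crim1, a membrane protein that binds BMPs, by 0.85 ± 0.14 (limma adjusted p = 0.00041), and F3, tissue factor, by 0.42 ± 0.10 (limma adjusted p = 0.0043). Igfbp3, a secreted binder of insulin-like growth factors, fell by 2.32 ± 0.12 (limma adjusted p = 2.8e-07), from 208, 278 and 295 TPM in controls to 49.1, 51.8 and 51.2 TPM. With all libraries Igfbp3 was the only one of the list to pass in 15% CO2, where it rose by 0.62 ± 0.12 (limma adjusted p = 0.027) to 387, 402 and 399 TPM. It was thus highest of all groups in 15% CO2 and lowest in low NaHCO3. Fjx1, a secreted protein related to the Four-jointed kinase, fell by 2.23 ± 0.40 in low NaHCO3 (limma adjusted p = 0.00076), and by 1.62 ± 0.16 without control 1. Control 1 held 39.1 TPM of Fjx1, beside 11.5 and 9.2 TPM in controls 2 and 3. Rbms3, an RNA-binding protein, fell by 1.73 ± 0.13 (limma adjusted p = 2.6e-06). In lactic acid 2 of the list rose with all libraries, Nt5e, the ecto-enzyme that makes adenosine, by 0.94 ± 0.11 and Tgfb2, a TGF-beta ligand, by 0.63 ± 0.13, with limma adjusted p of 0.0046 and 0.028. Without control 1, 4 of the list rose in 15% CO2 (Igfbp3 by 0.47, F3 by 0.30, Nt5e by 0.46 and Arhgef17 by 0.53) and 5 in lactic acid (Nt5e by 0.94, Tgfb2 by 0.55, F3 by 0.48, Gadd45a by 0.72 and Arhgef17 by 0.57), and none fell, by limma at an adjusted p under 0.05. Of all genes, 7.62% and 16.6% passed in those 2 comparisons.

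**Figure D5:**
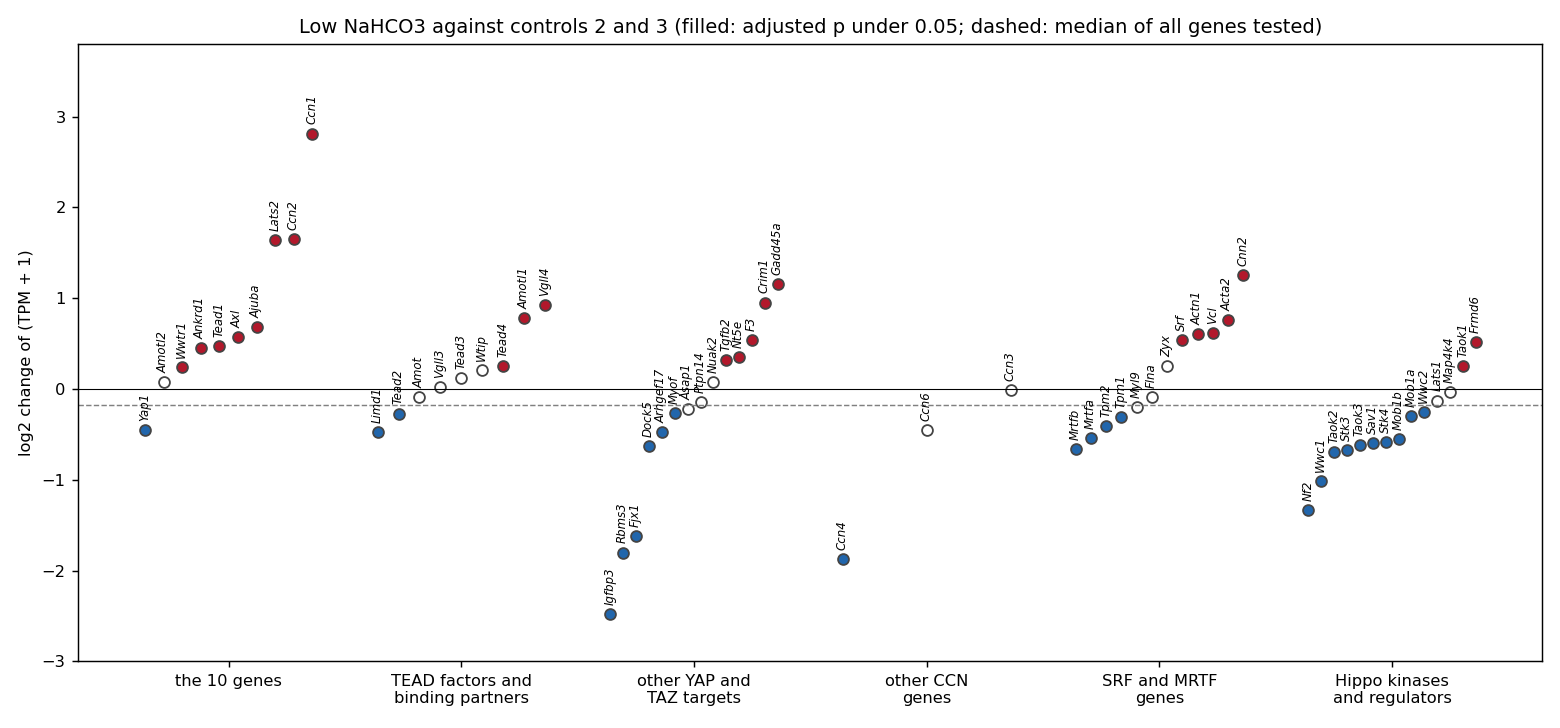
Log2 change of (TPM + 1) in low NaHCO3 against controls 2 and 3 for each tested gene of the 5 pathway lists and the 10 genes. Filled points passed at an adjusted p under 0.05 in limma (red higher, blue lower), and the dashed line is the median of all genes tested, -0.18. The 10 genes have a median of 0.52 and the Hippo kinases and upstream regulators one of -0.57.

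None of the other CCN genes rose in low NaHCO3. Of 3 tested out of 4, Ccn4 (also called Wisp1) fell by 1.67 ± 0.15 in low NaHCO3 (limma adjusted p = 6.5e-06), from 36.8, 55.8 and 57.9 TPM in controls to 15.8, 15.3 and 13.3 TPM, while Ccn3 and Ccn6 did not pass. Ccn3 (also called Nov) was at 58.4 TPM in control 1 and at 5.69 to 10.9 TPM in the other 11 libraries. Its lactic acid change was -0.51 with all libraries, which did not pass, and 0.44 without control 1, which did (limma adjusted p = 0.048).

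Genes of the actin cytoskeleton under SRF and its MRTF coactivators, which share several targets with YAP and TAZ, likewise included both directions. Of 12 tested out of 14, 5 rose in low NaHCO3 and 2 fell, with a median of 0.28 (5 up and 4 down without control 1, median 0.08). Only the total with all libraries was near the 56.2% of all genes that passed, 20.5% higher and 35.8% lower. Without control 1, 64.6% of all genes passed, 23.1% higher and 41.5% lower. Cnn2 (calponin 2) rose by 1.54 ± 0.21, Acta2 (smooth muscle actin) by 1.08 ± 0.21 and Vcl (vinculin) by 0.85 ± 0.16, with limma adjusted p of 0.00011, 0.0015 and 0.001. The coactivator genes Mrtfb and Mrtfa fell by 1.25 ± 0.37 and 0.74 ± 0.19, with limma adjusted p of 0.015 and 0.0075, and by 0.66 and 0.54 without control 1. Control 1 held 66.9 TPM of Mrtfb, beside 19.4 and 18.8 TPM in controls 2 and 3. None of the 12 passed in 15% CO2 or lactic acid with all libraries. There 6 and 1 had an unadjusted p under 0.05 in limma (share of all genes not computed). Without control 1, Acta2 (0.40), Srf (0.37) and Tpm2 (0.31) rose in 15% CO2, and Myl9 fell by 0.34 in lactic acid, with limma adjusted p of 0.03, 0.034, 0.014 and 0.021, where 7.62% and 16.6% of all genes passed. Tead2, Arhgef17, Srf and Tpm2, and the other pathway genes named for the fit without control 1, were chosen after their values were seen.

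The genes with the most similar pattern were sought over the 11 libraries without control 1, by Pearson's r of log2(TPM + 1) across 9801 genes with a mean of at least 5 TPM. The libraries share 4 groups, so these values describe profiles and carry no test. For Ccn1 they were Btc (betacellulin, r = 0.996), Ccdc186 (0.995) and Gab2 (0.994). Btc had 10.5 and 11.3 TPM in controls 2 and 3 and means of 13.8, 20.3 and 41.6 TPM in 15% CO2, lactic acid and low NaHCO3. Closest to Ccn2 were Mdm4 (0.991), Amn1 (0.989) and Ctsb (0.989), and closest to Ankrd1 were Mcu (0.972), Cyb5r1 (0.967) and Pvr (0.956). Yap1 was nearest to Slc33a1 (0.984), Armc1 (0.984) and Clp1 (0.978), Wwtr1 to Il33 (0.978), Dab2 (0.963) and Eea1 (0.956), and Tead1 to Nedd4l (0.988), Map4 (0.988) and Fip1l1 (0.987). Il33, an alarmin of the interleukin family, had 5.07 and 5.81 TPM in controls 2 and 3 and means of 6.89, 10.6 and 9.92 TPM in the treated groups, which is the order seen for Wwtr1.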

How the data were processed

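The submitters' processing notes name fastp 0.22.0, HISAT2 2.1.0 and the build GRCm39, and the authors deposited TPM for 21959 Ensembl genes in 12 libraries. The counter, the annotation and the strand setting were not given in the sources used here. No counts are listed, so depth is unknown, no counting interval is given, and reads shared with an overlapping gene cannot be told apart. The descriptions of replicates 2 and 3 print CO3 and CO4, and reagent catalogue numbers that rise by 1, which were read as copying errors. Symbols came from GENCODE M21 (21851 IDs matched, 108 did not; all 10 genes, 59 pathway genes and 35 markers matched).

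Values were taken as log2(TPM + 1), so changes of low genes are understated. Genes with at least 1 TPM in all 3 libraries of a group were tested (11996; 12023 without control 1). A group-means model over all libraries was fitted by limma 3.58.1 (R 4.3.3, trended eBayes), and 6 two-sided contrasts and an F test were adjusted by Benjamini-Hochberg over all genes at 0.05. The procedure was tested on simulated data with means and spreads taken without control 1. A library as far apart as control 1 was thus not covered. Pathway genes named are up to 3 in each direction per list with the largest change past the threshold, or, where none passed, the 2 of highest mean TPM. Genes compared for likeness are the 3 of highest r. The genes and lists were chosen with earlier results of these data known, and 3 alternatives that leave out several libraries were added after seeing the data. RefSeq windows are on GRCm38.p6, while the notes name GRCm39, so no other coordinates are given.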

Additional observations from a re-analysis of the deposited data

How the results depend on the processing

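Analyses were repeated under 30 alternatives of pseudocount, filter, scaling, fit, variance model, block and libraries. In low NaHCO3 against control the number of the 10 genes that passed was 6 to 10 (main 8). Ccn1, Ccn2, Lats2, Axl, Ajuba and Tead1 passed as higher in all 30, Ankrd1 in 29 and Wwtr1 in 22. Yap1 had a negative change in all 30 and passed in 6, each without control 1. Leaving out 1 library at a time gave 7 to 9 genes in this contrast, 0 to 2 in 15% CO2 against control, 1 to 7 in lactic acid against control, 0 to 2 between 15% CO2 and lactic acid, 4 to 8 in low NaHCO3 against 15% CO2, 4 to 5 in low NaHCO3 against lactic acid, and 4 to 9 in the F test, with 4 when low NaHCO3 library 1 or 2 was left out.

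In 15% CO2 against control, 0 genes became 2 without control 1, 2 with median-of-ratios scaling as well, 3 with quantile normalization, 1 with only the groups compared, 2 with the block, and 3 when 15% CO2 library 3 and lactic acid library 3 were also left out. In lactic acid against control, 1 became 4 with quantile normalization and 3 without mitochondrial and the 10 most abundant genes. It became 0 with only the groups compared, where 0 of all genes passed. Without control 1 it was 7, and under the further settings in the same order 6, 7, 2, 7 and 7. Of all 30 alternatives, the lactic acid change passed in 6 for Ccn2 and Wwtr1, 7 for Ankrd1 and Axl, 5 for Ajuba and 4 for Tead1. In 15% CO2 against control, Ccn1 passed in 6 and Ccn2 in 5. With control 2 or 3 left out too, a single control library remained, so gene counts are not given for these comparisons with control. Between 15% CO2 and lactic acid, 0 became 1 with only these groups, and without control 1 it was 2, then 2, 2, 1, 2 and 2, and 2 in each case when control 2 or 3 was left out too. In low NaHCO3 against 15% CO2, 4 became 9 with only these groups and 8 without control 1, then 9 with median-of-ratios scaling, 9 with only these groups, 8 with the block, 9 without the 3 libraries, and 8 when control 2 or 3 was left out too. In low NaHCO3 against lactic acid, 4 became 7 without control 1 with quantile normalization, and 7 without the 3 libraries. Apart from the changes set by fewer libraries or by fitting fewer groups, the cause was not tested.

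Directions turned, with a call, in these cases. Without control 1, Amotl2 in low NaHCO3 against 15% CO2 was 0.20 after median-of-ratios scaling, and Ankrd1 in low NaHCO3 against lactic acid was -0.22 after quantile normalization. Ccn3 in lactic acid against control was 0.44 without control 1, 0.46 and 0.41 with those 2 scalings, and 0.51 without the 3 libraries, and it ran from -0.994 to 0.44 when 1 library was left out.

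The median change of all genes in low NaHCO3, -0.19, was -0.03 after median-of-ratios scaling, 0.00 after quantile normalization and -0.29 without mitochondrial and the most abundant genes. The split of all genes called, 2454 higher and 4289 lower, became 3450 and 3376, 3054 and 2732, and 2151 and 5081. Correlations of same-numbered deviations ran from -0.149 to 0.490, and 3 of 18 were over 0.1. The highest was between 15% CO2 library 3 and lactic acid library 3. Between different numbers they ran from -0.480 to 0.394, and 5 of 36 were over 0.1. These ranges overlap, so whether replicate numbers pair any of the samples cannot be decided from them. The fit with the replicate number as a block gave 8 genes in low NaHCO3 against control, 1 in lactic acid and 0 in 15% CO2 with all libraries, the same counts as without it. Depth is unknown, so its effect on these values cannot be given.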
